A study of Mus musculus with 6 samples.

Results

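The genes described here carry out MHC class II antigen presentation: Cd74, H2-Aa, H2-Ab1, H2-Eb1, H2-DMa, H2-DMb1 and Ciita. They were chosen by gene symbol, and every non-control probe whose deposited accession maps to one of the 7 symbols was kept. That gave 5 of the 7 genes, among 12358 genes named on the array, and 8 of its 41006 non-control probes: 1 probe each for Cd74 and H2-DMa and a pair each for H2-Eb1, H2-DMb1 and Ciita. No probe was paired here with H2-Aa or H2-Ab1, the chains of the I-A molecule, so these genes were not analysed here. The study read gene expression by 2-colour array in crypts, the pockets between the villi of the small intestine in which new epithelial cells are made, cut by laser microdissection from frozen sections of the middle of the small intestine. All 6 mice were C57BL/6 and 120 days old. The LOI(+) group (loss of imprinting of Igf2, 3 mice) inherited from an H19+/- mother an allele that lacks H19 and the upstream region with its differentially methylated region. The wild-type LOI(-) group (3 mice) came from the same kind of cross, H19+/- females with wild-type males. The deletion is carried in every cell of the animal, so any cell type in the sections carried it. On each array 1 mouse's crypt RNA was in Cy3 and the Universal Mouse Reference RNA was in Cy5. That reference is a pool of cultured cell lines which includes B-lymphocyte, T-lymphocyte and alveolar macrophage lines. The comparison asks whether the class II genes differ between LOI(+) and LOI(-) crypts.

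MHC class II molecules are cell surface dimers that show peptides from endocytosed proteins to CD4+ T cells. Their alpha and beta chains are made in the endoplasmic reticulum on the invariant chain, CD74, which blocks the groove and guides them to endosomes. There the chain is cut down by cathepsins and the last fragment is exchanged for peptide by H2-DM. B cells, dendritic cells and macrophages express the set at all times, and epithelial cells of the small intestine express it as well, under control of interferon gamma and the gut microbiota. Transcription depends on CIITA, a coactivator that binds no DNA itself and is held at the promoters by factors on the X and Y boxes. C57BL/6 mice carry the b haplotype of the H2 complex, in which the gene of the I-E alpha chain, H2-Ea, is not transcribed, so the I-E beta chain made from H2-Eb1 lacks its usual partner.

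The promoters are shown first, because X and Y boxes are where CIITA acts on class II genes. RefSeq sequence of GRCm38.p6 gave a window of 300 bases around the transcription start for 4 of the 7 members, with H2-DMa at 2 starts. H2-Aa, H2-DMb1 and H2-Eb1, all in the H2 complex on chromosome 17, had matches close to the start. Their sequence from 120 to 21 bases before the start follows, 5′ to 3′ on the strand of the gene, with matches in capitals. The H2-Eb1 stretch lies on the plus strand at chr17:34305747-34305846, the H2-DMb1 stretch on the plus strand at chr17:34153071-34153170 and the H2-Aa stretch on the minus strand at chr17:34287844-34287943.
H2-Eb1: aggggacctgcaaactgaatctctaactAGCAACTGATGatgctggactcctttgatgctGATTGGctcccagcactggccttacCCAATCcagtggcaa
H2-DMb1: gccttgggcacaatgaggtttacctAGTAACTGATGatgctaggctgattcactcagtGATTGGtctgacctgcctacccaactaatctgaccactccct
H2-Aa: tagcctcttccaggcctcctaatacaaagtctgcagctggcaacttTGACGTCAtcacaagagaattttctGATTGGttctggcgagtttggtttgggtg

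Both strands were searched for a Y box core, GATTGG, for an X box core, the longer run of capitals in H2-Eb1 and H2-DMb1, and for a cyclic AMP response element, TGACGTCA. H2-Eb1 and H2-DMb1 held an X core followed by a Y core on the strand of the gene. The cores lay 21 bases apart in H2-Eb1 and 22 bases apart in H2-DMb1. H2-Eb1 had a further Y core on the opposite strand, 35 to 30 bases before the start. In H2-Aa the Y core lay behind the cyclic AMP response element, with no match to the X core pattern. H2-DMa had a Y core at 1 of its 2 starts, 199 to 194 bases before it, and no match at the other. Of all 32851 RefSeq windows of this length, 16.1% held the Y core, 3.09% the X core, 1.79% the cyclic AMP response element and 0.484% both the Y and the X core. These matches describe the letters of the windows and are not measured binding sites.

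The median Cy3 signal lay between 552 and 603 and the median Cy5 signal between 648 and 698, over a Cy3 background of 387 to 391. The signal that 95% of the 314 negative control spots stayed under was 439 to 449 in Cy3 and 388 to 393 in Cy5. LOI(+) 2 stood apart from the other arrays, with 146 spots marked as outliers against 14 to 50, and with a mean correlation with the others of 0.948 against 0.956 to 0.963. None of the 8 member features was marked as an outlier or saturated on any array, and all 48 Cy3 values were marked well above background. All 41006 probes carried that mark on at least 3 arrays, so it says little about detection. All 8 probes lay above the negative control limit on all 6 arrays in both channels, so the reference pool gave a signal for every member that had a probe. Values below are log2 of Cy3 over Cy5, after background correction and loess normalization within each array. A difference is the LOI(+) mean less the LOI(-) mean of these log2 ratios, followed by its standard error, and rests on 3 mice a side, which sets its precision.

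Cd74, the invariant chain, had a lower mean in LOI(+) crypts, but the difference did not pass the test. Its log2 ratio was 2.48, 2.66 and 3.07 in LOI(-) mice 1, 2 and 3, and 1.96, 2.45 and 2.57 in LOI(+) mice 1, 2 and 3. LOI(-) 3 was the highest array and LOI(+) 1 the lowest, and the groups overlapped because LOI(+) 3 lay above LOI(-) 1. The difference was -0.41 ± 0.20 (95% interval -0.88 to 0.063), which in limma had an unadjusted p of 0.0798 and an adjusted p of 0.822. The Cy3 signal was 1925, 1780 and 2665 in LOI(-) and 1358, 1776 and 2117 in LOI(+). The reference signal was steadier, at 837, 873 and 949 beside the LOI(-) mice and 811, 814 and 979 beside the LOI(+) mice. Its coefficient of variation over the 6 arrays was 8.13%, against 22.5% for Cy3, both before background subtraction. Background makes up more of the Cy5 than of the Cy3 signal of Cd74 and lowers the Cy5 coefficient more. How much of the spread of Cd74 lay in each channel was not tested. In whole crypt RNA, fewer cells with the transcript and less transcript per cell cannot be told apart. Without LOI(-) 3 the difference was -0.24, without LOI(+) 1 it was -0.23 and with scale normalization between arrays it was -0.23. It was -0.54 without LOI(-) 1 and -0.53 without LOI(+) 3, where the unadjusted p was 0.0475 and 0.0479 and the adjusted p 0.868 and 0.840 in limma.

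**Figure D1:**
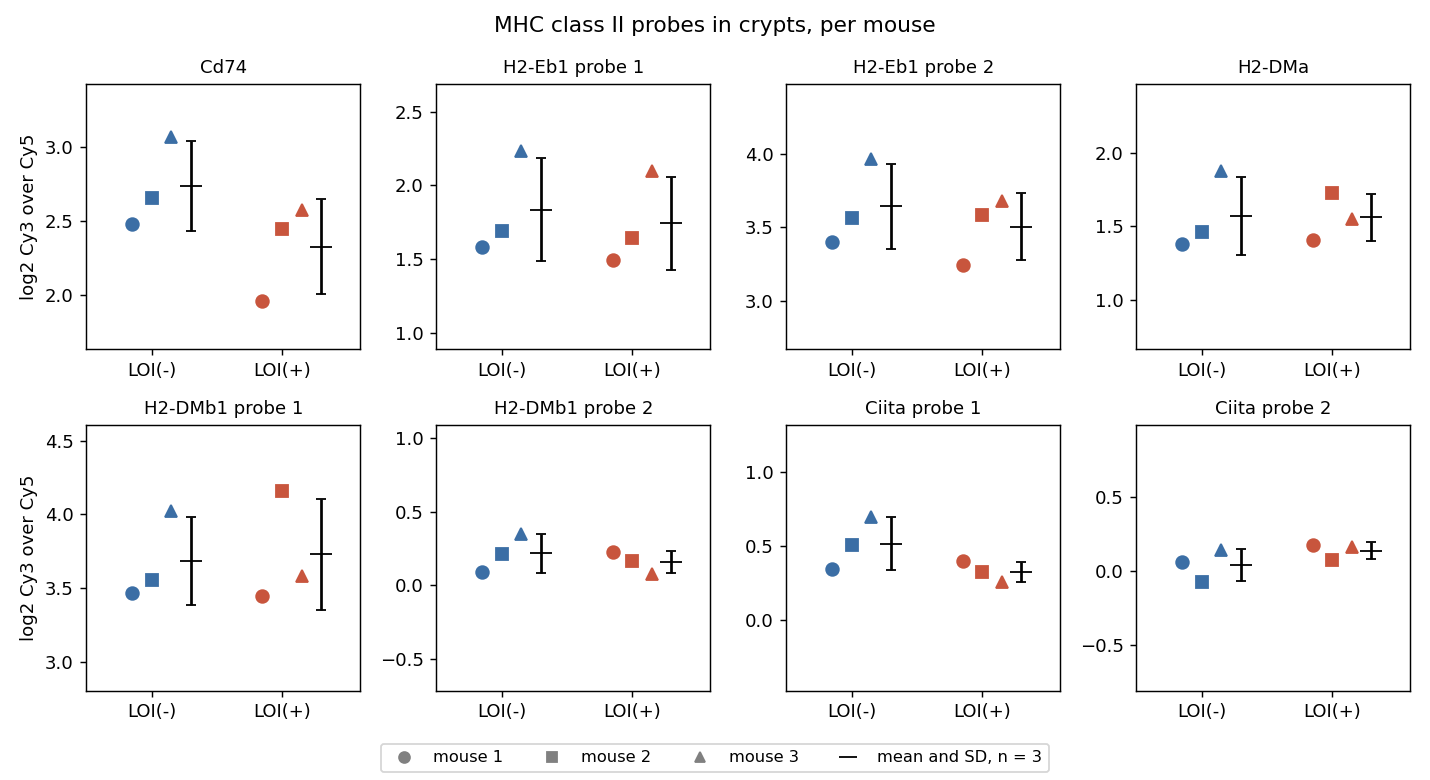
Log2 ratio of crypt RNA (Cy3) over reference RNA (Cy5) of the 8 class II probes, 1 panel per probe, each panel spanning the same log2 range; points are mice, bars the mean and SD of 3 mice. The groups overlap in every panel, and LOI(-) 3 (blue triangle) is the highest array in 6 of 8 panels.

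H2-Eb1, the beta chain of I-E, was read by a pair of probes that agreed on the order of the mice at the extremes. Probe 1 had log2 ratios of 1.58, 1.69 and 2.23 in LOI(-) and 1.49, 1.64 and 2.10 in LOI(+). Probe 2 had log2 ratios of 3.40, 3.56 and 3.96 in LOI(-) and 3.25, 3.58 and 3.68 in LOI(+). By both probes LOI(-) 3 was highest and LOI(+) 1 lowest, and the groups overlapped in both. The difference was -0.091 ± 0.21 (95% interval -0.59 to 0.41) for probe 1 and -0.14 ± 0.17 (95% interval -0.54 to 0.26) for probe 2. Neither passed the limma test, with adjusted p of 0.957 and 0.905. Both differences turned above 0 without LOI(-) 3, at 0.11 and 0.022, and with scale normalization, at 0.027 and 0.11, and probe 1 also did so without LOI(+) 1, at 0.034. The probes disagreed on the ratio to the reference. The Cy5 signal ran from 1526 to 2034 for probe 1 and from 484 to 567 for probe 2. The cell lines of the pool need not share the H2 haplotype of the mice, and whether an allele affects either probe was not tested. The first 30 bases of each probe are shown because the ratios disagreed.
H2-Eb1 probe 1: ggaaggagttccccccgtgtctccatgcca
H2-Eb1 probe 2: accagaaaggacagtctggacttcagccaa

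H2-DM, the dimer that loads peptide, did not differ between the groups beyond the spread of the mice. H2-DMa, its alpha chain, had log2 ratios of 1.38, 1.46 and 1.87 in LOI(-) and 1.41, 1.73 and 1.55 in LOI(+). Again LOI(-) 3 was the highest, LOI(-) 1 was the lowest, and the LOI(+) mice lay between them. The difference was -0.013 ± 0.14 (95% interval -0.35 to 0.33), with an adjusted p of 0.993 in limma. H2-DMa turned to 0.10 with scale normalization, to 0.048 with median centring, to 0.064 without LOI(+) 1 and to 0.14 without LOI(-) 3. Its Cy3 signal ran from 2958 to 5173 and its Cy5 signal from 2380 to 3213.

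H2-DMb1, the beta chain of H2-DM, gave different pictures with its pair of probes. Probe 1 had log2 ratios of 3.47, 3.56 and 4.03 in LOI(-) and 3.44, 4.16 and 3.59 in LOI(+). LOI(+) 2 and LOI(-) 3 stood above the other 4 mice, so the 2 high arrays came from different groups. Probe 1 differed by 0.045 ± 0.22 (95% interval -0.46 to 0.55), with an adjusted p of 0.980 in limma. The sign turned without LOI(+) 2, at -0.17, without LOI(-) 1, at -0.062, and without LOI(-) 2, at -0.019, while scale normalization gave 0.32 and leaving out LOI(-) 3 gave 0.22. Probe 2 had log2 ratios of 0.088, 0.21 and 0.35 in LOI(-) and 0.23, 0.17 and 0.080 in LOI(+). On this probe LOI(-) 3 was highest and LOI(+) 2 was not raised. Probe 2 differed by -0.059 ± 0.082 (95% interval -0.25 to 0.13), with an adjusted p of 0.917 in limma. It turned to 0.17 in log2 Cy3 alone and to 0.0061 without LOI(-) 3. The Cy5 signal ran from 664 to 755 for probe 1 and from 1085 to 1633 for probe 2, whose Cy3 signal, 833 to 1139, lay below its Cy5 signal on every array before normalization.

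The H2-DMb1 probe sequences are shown because the probes disagreed. Probe 1 holds the polyadenylation hexamer AATAAA, in capitals in its last 30 bases, and has a stop codon in all 3 forward reading frames. Probe 2 has no AATAAA, and 2 of its forward frames are free of stops. The H2-DMa probe is shown for comparison, with the same hexamer in its last 30 bases.
H2-DMb1 probe 1, bases 31 to 60: gatcactaagaAATAAActggtggactttt
H2-DMb1 probe 2, bases 1 to 30: caatggagactggacataccagacagtctc
H2-DMa, bases 31 to 60: tccaggaAATAAActtcatttcttaatgtc
H2-DMb2 is a close copy of H2-DMb1, and which of them either probe reads was not tested, so the H2-DMb1 values are uncertain.

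Ciita, the coactivator that switches the set on, was lower on average in LOI(+) by probe 1 and not by probe 2, and neither probe passed the test. Probe 1 had log2 ratios of 0.34, 0.50 and 0.70 in LOI(-) and 0.39, 0.32 and 0.26 in LOI(+). The highest was LOI(-) 3 and the lowest LOI(+) 3, and the groups overlapped because LOI(-) 1 lay below LOI(+) 1. The difference was -0.19 ± 0.097 (95% interval -0.42 to 0.038), with an adjusted p of 0.822 and an unadjusted p of 0.0889 in limma. It was -0.45 in log2 Cy3 alone and -0.10 without LOI(-) 3. The log2 Cy3 values were taken after normalization of both channels, so they are not free of the reference. Without LOI(-) 1 it was -0.28, with an unadjusted p of 0.0195 and an adjusted p of 0.868 in limma. Probe 2 had log2 ratios of 0.063, -0.074 and 0.14 in LOI(-) and 0.18, 0.073 and 0.16 in LOI(+). It differed by 0.094 ± 0.073 (95% interval -0.078 to 0.27), with an adjusted p of 0.853 in limma. Its Cy3 signal, 456 to 495, was close to the 439 to 449 of the negative controls, so it carries little information on the crypts.

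The Ciita probes share letters at their ends, and their place on the transcript was not tested. The last 7 bases of probe 1 are the first 7 bases of probe 2, in capitals here.
Ciita probe 1, bases 31 to 60: acacttaaaatgcatcagctacgTTCACTG
Ciita probe 2, bases 1 to 30: TTCACTGcaaagatctttgtagcttccaaa
Probe 2 also holds an inverted repeat with arms of 9 bases, which start at bases 1 and 33. The signal of probe 1 was 1273 to 1878 in Cy3 and 2019 to 2611 in Cy5, while probe 2 had 414 to 487 in Cy5. Whether the repeat affects its signal was not tested.

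**Figure D2:**
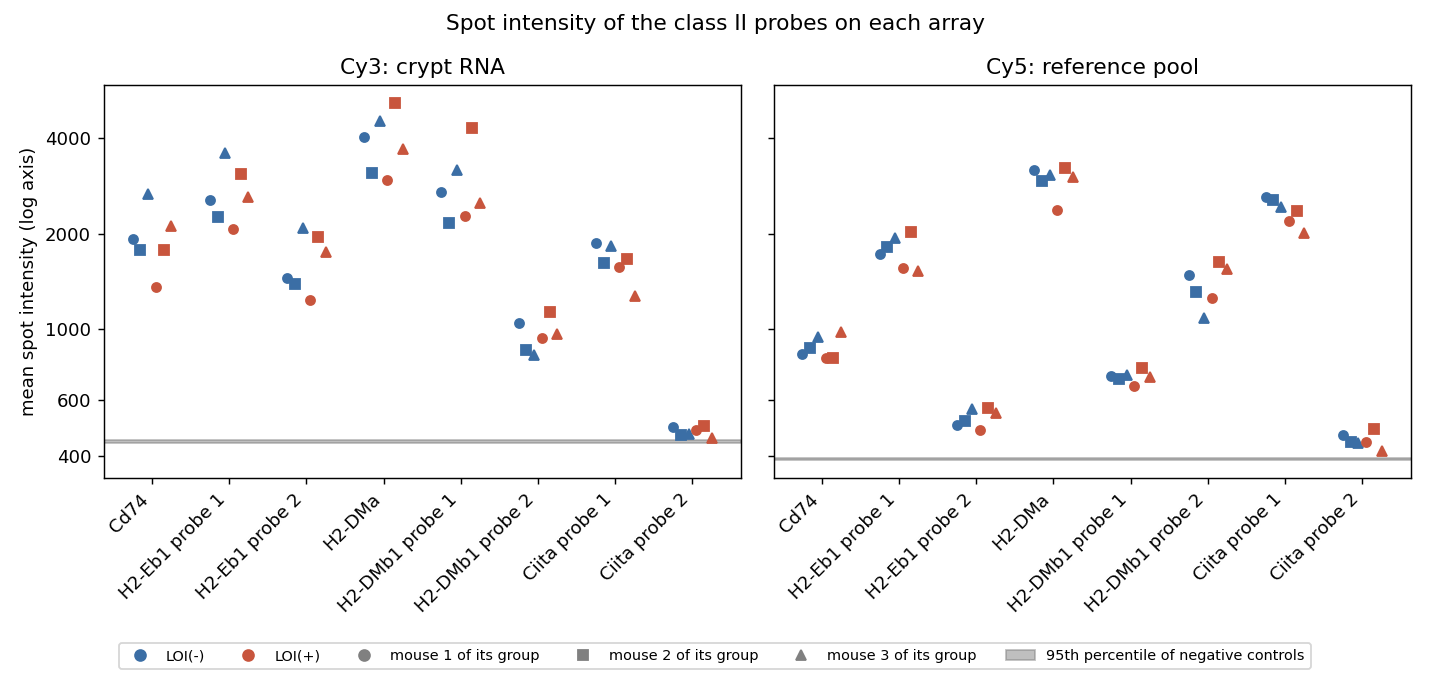
Mean spot intensity of each class II probe on the 6 arrays, crypt RNA in Cy3 on the left and the reference pool in Cy5 on the right, both on a log axis; the grey band is the level that 95% of negative control spots stayed under. Every probe lies above the band in both channels, and Ciita probe 2 lies nearest to it.

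Over the 8 probes, 6 had a lower and 2 a higher mean in LOI(+), with a median difference of -0.075. Over all 41006 probes tested, 49.1% were lower and the median was 0.0020. The 6 of 8 is not a stable count. It was 2 of 8 without LOI(-) 3, 3 of 8 with scale normalization between arrays, 3 of 8 in the 4 mice labelled male, and 7 of 8 without LOI(-) 1, LOI(-) 2 or LOI(+) 2. None of the 8 probes passed an adjusted p of 0.05 in limma, and 0% of all probes did, where the smallest adjusted p was 0.809. None of the 8 had an unadjusted p under 0.05, against 2.31% of all probes called lower and 3.81% called higher at that level. No probe had groups that did not overlap, against 11.3% of 40696 probes with a value on every array. The intervals show what these 6 arrays could not resolve: for Cd74 the interval spans a fall of 0.88 on the log2 scale and a rise of 0.063. Two-sided limma tests on 3 against 3 mice measured the spread between animals, since each array held a separate mouse. Image extraction of the LOI(-) arrays came before that of the LOI(+) arrays, and this order cannot be told apart from the genotype.

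Most member probes were highest on the same array. The highest array was LOI(-) 3 for 6 of the 8 probes, which it was for 16.3% of all probes. The lowest was LOI(+) 1 for 4 of the 8, which it was for 17.8% of all probes. Centred on the 6 arrays, the mean of the 8 probes was -0.13, -0.036 and 0.31 in LOI(-) 1, 2 and 3, and -0.19, 0.031 and 0.015 in LOI(+) 1, 2 and 3. A wild-type mouse stood above the other 5, and the other wild-type mice lay among the LOI(+) mice. The spread of a probe, as its root mean square about its own mean, was 0.33 for Cd74, 0.28 and 0.22 for H2-Eb1, 0.18 for H2-DMa, and 0.28 and 0.091 for H2-DMb1. For Ciita it was 0.15 and 0.085. The median over the 14393 named probes that exceeded the negative control limit everywhere was 0.10. These probes include many of lower signal than most members. The spread among probes of like signal was not computed, so this does not show that the members vary more than such probes. H2-DMa lay nearest to the common profile, at a root mean square distance of 0.065, and Cd74 farthest, at 0.20. LOI(-) 3 is also 1 of the 2 mice whose labels give no sex, the other being LOI(+) 2, which had the highest value of H2-DMb1 probe 1. All 8 probes come from the same 6 hybridisations, so they are not independent of each other.

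**Figure D3:**
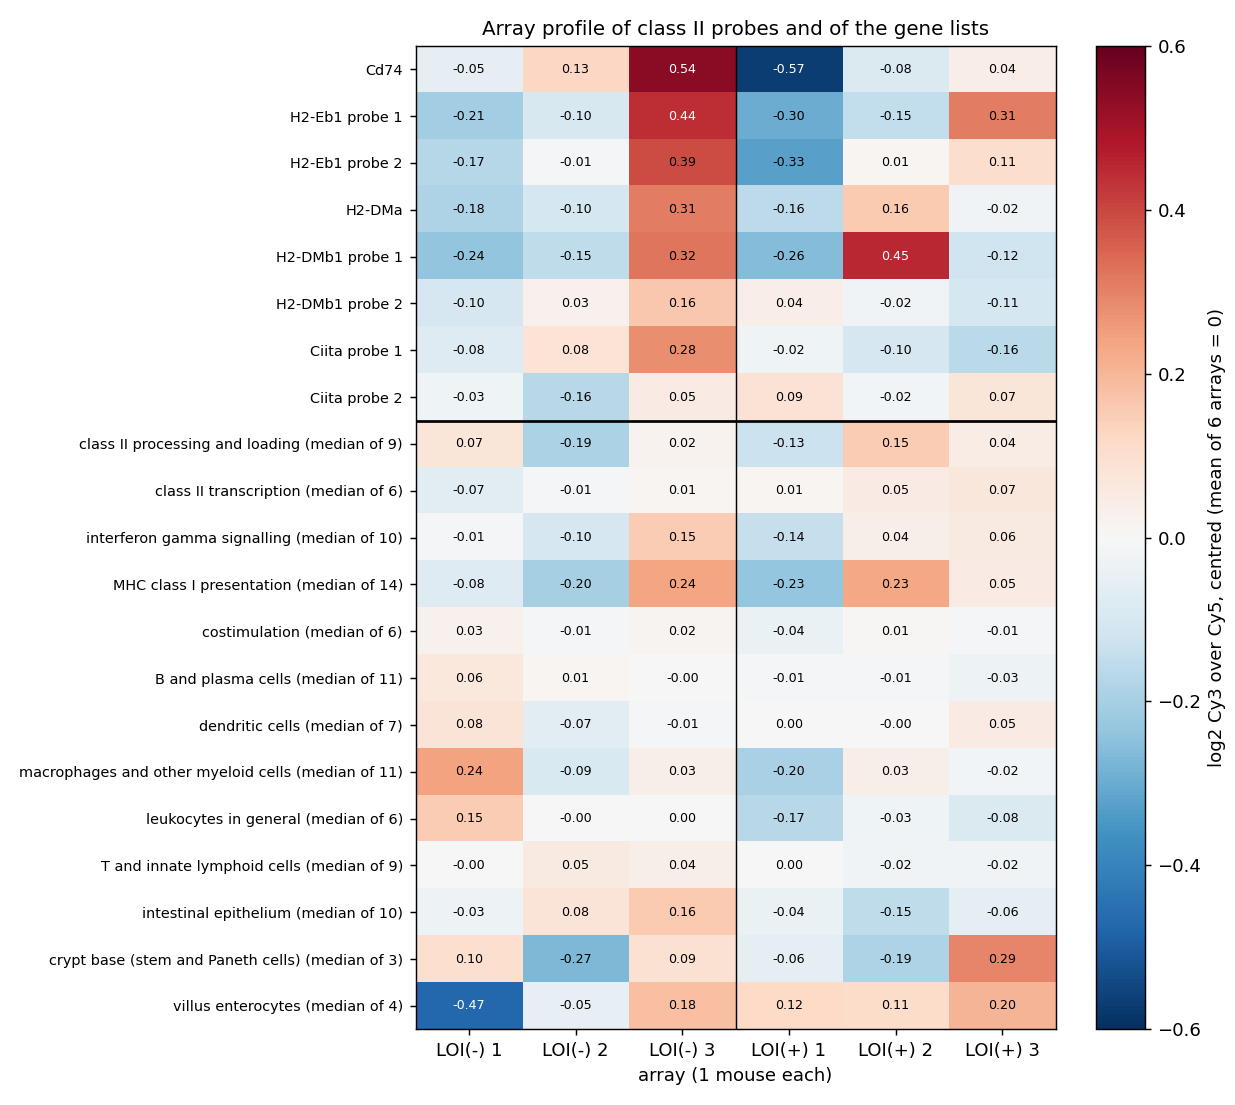
Log2 ratios centred on the mean of the 6 arrays (colour and printed value), with the 8 class II probes above the line and the median of each gene list below it; columns are the arrays, 3 LOI(-) and 3 LOI(+). LOI(-) 3 is high and LOI(+) 1 low in most class II rows and in the class I and interferon gamma lists. LOI(+) 1 is also lowest in the myeloid (-0.20) and leukocyte (-0.17) lists, and LOI(-) 3 highest in the epithelial list (0.16). The B cell, dendritic cell and T cell rows lie close to 0, at most 0.077 from it.

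The other genes of the pathway were read with 1 probe each, that of highest mean Cy3 signal. Of 15 genes of class II processing and loading listed, 9 had a probe, and 6 of these were higher in LOI(+) and 3 lower, with a median difference of 0.066. With scale normalization or in Cy3 alone 5 of the 9 were lower. None of the 9 passed in limma, before or after adjustment. H2-Oa and H2-Ob, the chains of the H2-DO dimer that restrains H2-DM in B cells, differed by 0.068 ± 0.075 and 0.076 ± 0.072. Ctss, the cathepsin that makes the last cut of the invariant chain in many antigen-presenting cells, had log2 ratios of -0.52, -1.17 and -0.76 in LOI(-) and -1.30, -0.44 and -1.02 in LOI(+). Its highest array was LOI(+) 2 and its lowest LOI(+) 1, so the spread lay within a group. Ctss differed by -0.11 ± 0.25 and Ctsd, a lysosomal protease, by -0.13 ± 0.088. Cd63 and Ctsl were saturated in Cy5 on all 6 arrays, so their ratios are limited. Both are among the 6 genes counted as higher and enter the median. Marchf1, among the 3 lower, exceeded the negative control limit in Cy3 on 4 arrays only. No probe was paired here with H2-Ea, H2-Eb2, H2-DMb2, Lgmn or Ifi30.

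Factors that act at the class II promoters were read next. Of 10 listed, 6 had a probe, with 4 higher and 2 lower (none lower in Cy3 alone), a median of 0.044 and none passing in limma. Rfxank and Rfxap, subunits of the complex on the X box, differed by 0.11 ± 0.055 and 0.027 ± 0.082. Nfyc, a subunit of the factor on the Y box, differed by 0.10 ± 0.066. Creb1, which binds cyclic AMP response elements, was read without LOI(+) 2, where its spot was marked as an outlier, and differed by -0.095 ± 0.17. Zxdc, a cofactor of CIITA, had an SD of 0.30 in LOI(+), where LOI(+) 1 was lowest and LOI(+) 2 highest, and differed by 0.060 ± 0.14. Rfx5 was not analysed here.

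Interferon gamma signalling, which induces Ciita, was read by all 10 genes listed. Of these 6 were lower and 4 higher, with a median of -0.069, and none passed in limma at either level. Ifngr1, the ligand-binding receptor chain, had log2 ratios of 1.59, 1.69 and 1.91 in LOI(-) and 1.40, 0.99 and 1.69 in LOI(+). The extremes were LOI(-) 3 above and LOI(+) 2 below, and LOI(+) 3 lay among the LOI(-) mice. Ifngr1 differed by -0.37 ± 0.18, with an adjusted p of 0.822 in limma. Irf1, a transcription factor induced by the pathway, had log2 ratios of 2.01, 2.36 and 2.79 in LOI(-) and 2.33, 2.64 and 2.62 in LOI(+). Its highest array was LOI(-) 3, as for most class II probes, and its lowest was LOI(-) 1. Irf1 differed by 0.14 ± 0.19, Irf8 by -0.17 ± 0.10 and Jak2 by -0.081 ± 0.058. Ifng itself exceeded the negative control limit on 2 arrays only, of the 6.

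MHC class I genes, which show cytosolic peptides to CD8+ T cells, had no common direction. Of 20 listed, 14 had a probe, with 7 higher and 7 lower and a median of 0.0042, and none passed in limma. The number lower was 3 without LOI(-) 3, 12 without LOI(-) 2 and 11 without LOI(+) 2. The centred median of the list was -0.076, -0.20 and 0.24 in LOI(-) 1, 2 and 3, and -0.23, 0.23 and 0.051 in LOI(+) 1, 2 and 3. LOI(-) 3 was its highest and LOI(+) 1 its lowest array, as for the class II probes, and LOI(+) 2 was close to LOI(-) 3. B2m, the light chain of class I, had log2 ratios of 0.032, -0.21 and 0.44 in LOI(-) and -0.57, 0.34 and 0.16 in LOI(+), a difference of -0.11 ± 0.26. H2-T3, a class I-like molecule of the gut epithelium, differed by 0.45 ± 0.19, H2-T23 by -0.32 ± 0.26 and Pdia3, a chaperone of class I loading, by -0.17 ± 0.13. Of the costimulation genes all 6 had a probe, with 4 lower, 2 higher, a median of -0.046 and none passing. Cd86 and Cd80, ligands of CD28, differed by -0.070 ± 0.055 and -0.19 ± 0.17, and Cd274, which encodes PD-L1, by -0.097 ± 0.073.

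**Figure D4:**
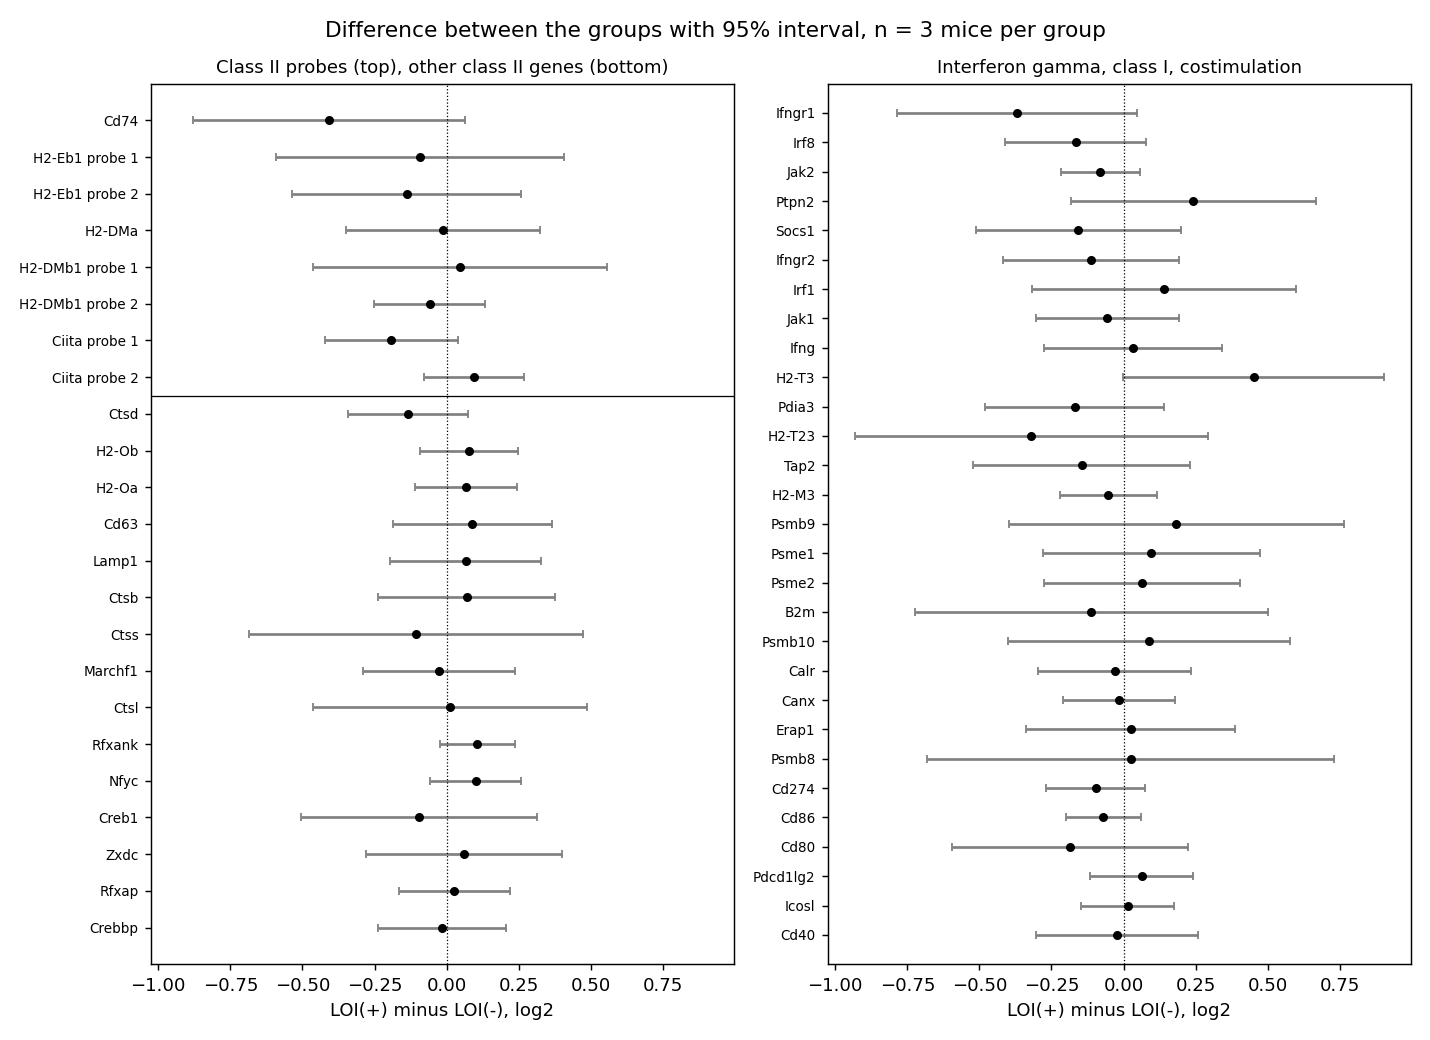
Log2 difference, LOI(+) mean less LOI(-) mean, and its 95% interval from limma, n = 3 mice per group, for the 8 class II probes and measured genes of class II processing and transcription (left) and of interferon gamma signalling, class I presentation and costimulation (right). Every interval includes 0, and that of Cd74 runs from -0.88 to 0.063.

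Markers of the cells that could carry class II genes into the sample were read beside them. For comparison with the marker counts, 49.1% of all 41006 probes were lower in LOI(+). At an unadjusted p under 0.05 in limma, 2.31% of all probes were called lower and 3.81% higher. The epithelial markers Epcam and Vil1 had Cy3 signals from 7319 to 10654 and from 14806 to 20920. Ptprc, which marks all leukocytes, had a Cy3 signal of 450 to 474 against the 439 to 449 of the negative controls, so it stood just above them on all 6 arrays. The 6 general leukocyte markers were lower in LOI(+) for 5 of 6, with a median of -0.20, and 2 of them, Cd53 at -0.21 ± 0.081 and Ptprc at -0.20 ± 0.082, had an unadjusted p under 0.05. Neither passed after adjustment in limma. The summed Cy3 of the leukocyte list ran from 5979 to 6827 in LOI(-) and from 5211 to 6368 in LOI(+), with Coro1a alone at 2163 to 3401. Such sums, here and below, add mean spot signals without background subtraction or normalization, so they do not measure cell content. The centred median of the leukocyte list was highest in LOI(-) 1, at 0.15, and 0.0034 in LOI(-) 3, the mouse with the highest class II values. It was lowest in LOI(+) 1, at -0.17, the mouse with the lowest Cd74. Its part in the Cd74 value was not tested.

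Of 14 B and plasma cell markers 11 had a probe, with 7 lower, 4 higher, a median of -0.073 and none passing. Cd79a and Cd79b, the signalling chains of the B cell receptor, differed by 0.046 ± 0.055 and -0.10 ± 0.13, and Ms4a1, which encodes CD20, by 0.28 ± 0.15. The summed Cy3 of the B cell list ran from 8500 to 10193 in LOI(-) and from 9199 to 9761 in LOI(+). Its centred median in LOI(-) 3 was -0.0025, where the centred median of the class II probes was 0.31. The B cell median covers markers that went different ways. In LOI(-) 3 Ms4a1 was at its lowest log2 ratio, 0.53, and Cd22 was at 1.10, near its highest. The part of B cells in the class II values was not tested. The 7 measured dendritic cell markers, of 10 listed, had a median of -0.012, with 4 lower and 3 higher. Among them Itgax, which encodes CD11c, differed by 0.012 ± 0.064, and Clec9a at 0.20 ± 0.082 had an unadjusted p under 0.05 and did not pass after adjustment in limma. The Cy3 signal of Clec9a, 494 to 573, was not far above the 439 to 449 of the negative controls. The summed Cy3 of the dendritic cell list ran from 4866 to 6095 in LOI(-) and from 5386 to 5611 in LOI(+).

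Macrophage and other myeloid markers were lower for 9 of 11 measured, of 15 listed, with a median of -0.11 and none passing at either level. Cd14, an endotoxin receptor, differed by -0.26 ± 0.11, Itgam by -0.087 ± 0.052 and Lyz2 by -0.40 ± 0.19. Lyz2 is a close copy of Lyz1, the lysozyme of Paneth cells at the crypt base, and which of them the probe reads was not tested. Lyz2 made up most of the summed Cy3 of the list, 24649 to 73485 in LOI(-) and 21690 to 40327 in LOI(+). The 9 measured T and innate lymphoid markers, of 10 listed, had a median of -0.037, with 6 lower and 3 higher. Among them Cd3g at -0.29 ± 0.078 had an unadjusted p of 0.0072 and did not pass after adjustment in limma. The Cy3 signal of Cd3g, 478 to 504, was close to the 439 to 449 of the negative controls. Its ratio therefore carries little information on the crypts. The summed Cy3 of that list ran from 7479 to 8567 in LOI(-) and from 7940 to 9015 in LOI(+). No listed leukocyte marker with a probe lay below the negative controls on all arrays. Some lay only just above them, such as Il7r at 449 to 462 in Cy3 and Gata3 at 463 to 490. The share of all probes that met this limit was not computed, so it does not show that leukocyte transcripts were present.

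Epithelial markers were read in the same way. Of 10 measured, of 11 listed, 9 were lower in LOI(+), with a median of -0.17, but 4 of 10 were lower with scale normalization between arrays, where the median was 0.063. Krt20 at -0.20 ± 0.055, Cdx1 at -0.33 ± 0.11 and Krt8 at -0.55 ± 0.23 had an unadjusted p under 0.05, and none passed after adjustment in limma. The Cy3 signal of Cdx1, 489 to 545, was not far above the 439 to 449 of the negative controls. LOI(-) 3 was the highest array for Krt20, Cdx1 and Krt8, as it was for Cd74, H2-Eb1, H2-DMa and Ciita probe 1. It was the highest for 16.3% of all probes. Krt20, Cdx1 and Krt8 were picked by small p, and all their LOI(-) values lay above their LOI(+) values. Their highest array therefore had to be an LOI(-) mouse, so the likeness to the class II probes is partly set by that choice. The summed Cy3 of the list ran from 108480 to 147921 in LOI(-) and from 120476 to 148219 in LOI(+), with Krt19 saturated on 2 arrays. Villus enterocyte markers had a probe for 4 of 10 listed, all 4 higher in LOI(+), with a median of 0.26 and none passing. Their centred median was -0.47 in LOI(-) 1 and between -0.051 and 0.20 on the other 5 arrays. The summed Cy3 of the villus list ran from 25329 to 31141 in LOI(-) and from 33057 to 51957 in LOI(+), with Fabp2 alone at 19084 to 35318. Of 8 crypt base markers 3 had a probe, and Smoc2, Mmp7 and Lgr5 differed by 0.22 ± 0.12, -0.16 ± 0.093 and 0.19 ± 0.29. Their summed Cy3 ran from 7558 to 20471 in LOI(-) and from 8223 to 14237 in LOI(+). The part of these markers in the class II values was not tested.

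Among the same 14393 named probes, those whose centred values lay nearest to the mean class II profile were Uba1, Tcfl5, Bcl10, Prelid1, Pgls and 1110038F14Rik. Their root mean square distances over the 6 arrays ran from 0.017 for Uba1, the main ubiquitin-activating enzyme, to 0.045 for Pgls, an enzyme of the pentose phosphate pathway, against a median of 0.18 over all such probes. In LOI(-) 3 the centred values of these 6 genes ran from 0.22 to 0.35 and in LOI(+) 1 from -0.24 to -0.15. They differed between the groups by -0.16 to -0.037, and none passed in limma. Tcfl5 had a Cy3 signal of 449 to 467, close to the negative controls. The nearest genes were picked from many by this distance, so their likeness is a description of these 6 arrays.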

How the data were processed

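Crypt RNA of 6 mice (Cy3) was hybridised against a common reference (Cy5) on 6 arrays, with no dye swap, per the labels. Each array's deposited spot intensity values are scanner output of Agilent Feature Extraction, whose own processed signals were background-subtracted and dye-normalized, per the file headers. The log10 table the authors deposited, used as an alternative, followed the log10 ratio of the processed Cy3 to Cy5 signals with the mean log10 Cy5 added back (r at least 0.998, column medians 2.90), so scale, centring and direction were known. Mean signals were corrected with normexp (offset 50) and normalized by loess in limma 3.58.1 (R 4.3.3), leaving out control and outlier features. A filter, Cy3 well above background on 3 arrays, removed 0 of 41006 probes. Groups were compared with lmFit and eBayes, Benjamini-Hochberg over all probes, two-sided, at 0.05. The fit was tested on simulated data.

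Accessions and synonyms in RefSeq GRCm38.p6 named 15423 probes (37.6%) and left 25583 unnamed here. Of 145 other list genes, 106 had a probe. Members and lists were chosen with earlier results of these data known. Named were all members, the 3 list genes of smallest p, a fixed set of pathway and marker genes, and the 6 genes nearest in profile. Any other gene was picked once its values had been seen. Some genes that this rule names are not reported here.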

Additional observations from a re-analysis of the deposited data

How the results depend on the processing

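Over 20 alternatives, no class II probe passed an adjusted p of 0.05, and 0 of all probes did. Probes at an unadjusted p under 0.05 numbered 2511, and 1600 to 3597 with an array left out. Cd74 and Ciita probe 1 stayed below 0 and Ciita probe 2 above 0 in every alternative run. Other signs turned. With scale normalization H2-Eb1 stood at 0.027 (probe 1) and 0.11 (probe 2) and H2-DMa at 0.10, with 3 of 8 probes lower. With median centring H2-DMa stood at 0.048, and with log2 Cy3 alone H2-DMb1 probe 2 stood at 0.17. In the 4 mice labelled male H2-Eb1 probe 1 stood at 0.16, H2-DMa at 0.055 and H2-DMb1 probe 2 at 0.0016, with 3 of 8 probes lower. The cause was not tested. With an array left out, Cd74 ranged from -0.54 to -0.23, Ciita from -0.28 to -0.10 (probe 1) and 0.036 to 0.14 (probe 2), H2-Eb1 from -0.27 to 0.11 (probe 1) and -0.26 to 0.022 (probe 2), H2-DMa from -0.11 to 0.14, and H2-DMb1 from -0.17 to 0.22 (probe 1) and -0.12 to 0.0061 (probe 2). The median of the 8 ranged from -0.17 to 0.065, and 2 to 7 were lower. The main fit did not pair the mice by replicate number. Deviations of same-numbered mice from their group means correlated across probes with r of -0.084, -0.25 and 0.35, and not every mouse correlated best with its own number. Deviations within a small group depend on each other, so these values cannot settle whether the numbers pair the mice. The fit with a replicate block called 0 probes and had 2624 at an unadjusted p under 0.05. With the block Cd74 had an unadjusted p of 0.00493 and an adjusted p of 0.713 in limma, and in log2 Cy3 alone Ciita probe 1 had 0.0146 and 0.911. The median of the 8 was 0.062 with scale normalization. Ciita probe 2 lay close to the negative controls, which limits its value.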
